A study of Drosophila melanogaster with 6 samples.

Results

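The digestive serine proteases of the Jonah and trypsin families are described here in whole male *Drosophila* raised on glucose-supplemented food. Members were taken by symbol from the genes of the deposited comparison table: names that begin with Jon and a digit, names that end in Try, and yip7, Ser6, Ser8, CG18179 and CG18180. The rule found 30 of the 17737 genes in the count files, of which 14 belong to the Jonah group, 11 to the trypsins and 5 to the remaining serine proteases, and Ser12 and SER4, also named by the rule, were not among the 14143 genes of that table. GSF flies received holidic food with 50 g/L of added glucose, and HF flies received the unmodified holidic food, a fully defined diet. Flies of both groups were w1118 males that grew on standard cornmeal until eclosion and then spent 20 days at 25°C on their adult diet. Each diet has 3 libraries of 5 pooled whole flies, numbered 1 to 3. The labels do not say whether the libraries of a diet came from separate cultures, so p-values measure only the spread between these samples. The comparison asks which transcripts differ with the added glucose.

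Serine proteases of this kind are made by the absorptive cells of the midgut, the enterocytes, as inactive precursors and are secreted into the gut lumen, where they cut dietary protein into peptides. Trypsins cut after lysine or arginine, whereas Jonah genes encode chymotrypsin-like endopeptidases that are transcribed in the gut. Holidic food supplies amino acids in free form instead of as protein.

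Levels are given as CPM, which are read counts scaled to a common, normalized library size. Between 60378391 and 66493536 counts fell on genes in GSF libraries, and between 51826530 and 60990342 in HF libraries, so that 3 counts correspond to between 0.0449 and 0.0584 CPM. The test covered genes that reached 1 CPM in 3 or more libraries, which kept 13373 genes and 28 of the 30 proteases. A gene passed the test at a p under 0.01 and a false discovery rate under 0.05 in edgeR's quasi-likelihood test. Ribosomal RNA genes took 20.6% to 24.5% of counts in GSF libraries, against 17.9% to 18.6% in HF libraries, and the part of this difference in the results was not tested.

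Protease transcripts were less abundant in GSF flies. Summed over the 30 genes, the level was 3618, 3812 and 4825 CPM in GSF libraries 1, 2 and 3, against 5748, 6905 and 6803 CPM in HF libraries 1, 2 and 3. The sums do not overlap, and the mean in GSF flies, 4085 ± 648 CPM (SD, n = 3), was 0.63 times the 6485 ± 641 CPM of HF flies (SD, n = 3). These transcripts made up 0.409% of the scaled counts on GSF and 0.649% on HF. The Jonah genes together reached 1214, 1234 and 1486 CPM on GSF, against 1749, 2014 and 2245 CPM on HF. The trypsins reached 1503, 1777 and 2445 CPM on GSF, against 2876, 3625 and 3253 CPM on HF. The other proteases reached 901, 801 and 895 CPM on GSF, against 1123, 1267 and 1305 CPM on HF. In whole flies, fewer enterocytes and less RNA per enterocyte cannot be told apart.

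Few genes carry most of this RNA. alphaTry supplied 21.4% of the summed level, yip7 18.1%, Jon65Aiv 13.6% and Jon65Aiii 9.91%, over all 6 libraries. Per kb of exon, alphaTry stood highest on both diets, with a mean of 1040.1 CPM per kb on GSF and 1586 CPM per kb on HF, followed by yip7 with 911 CPM per kb on GSF and 1199.7 CPM per kb on HF. Jon65Aiv came next, with 658 CPM per kb on GSF and 929.9 CPM per kb on HF. At the other end, CG18179 had 0.45 CPM per kb on GSF and 2.33 CPM per kb on HF, the lowest of the tested genes on GSF. The order is not the same on both diets: Jon65Aiii stands above gammaTry on GSF and below it on HF.

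**Figure D1:**
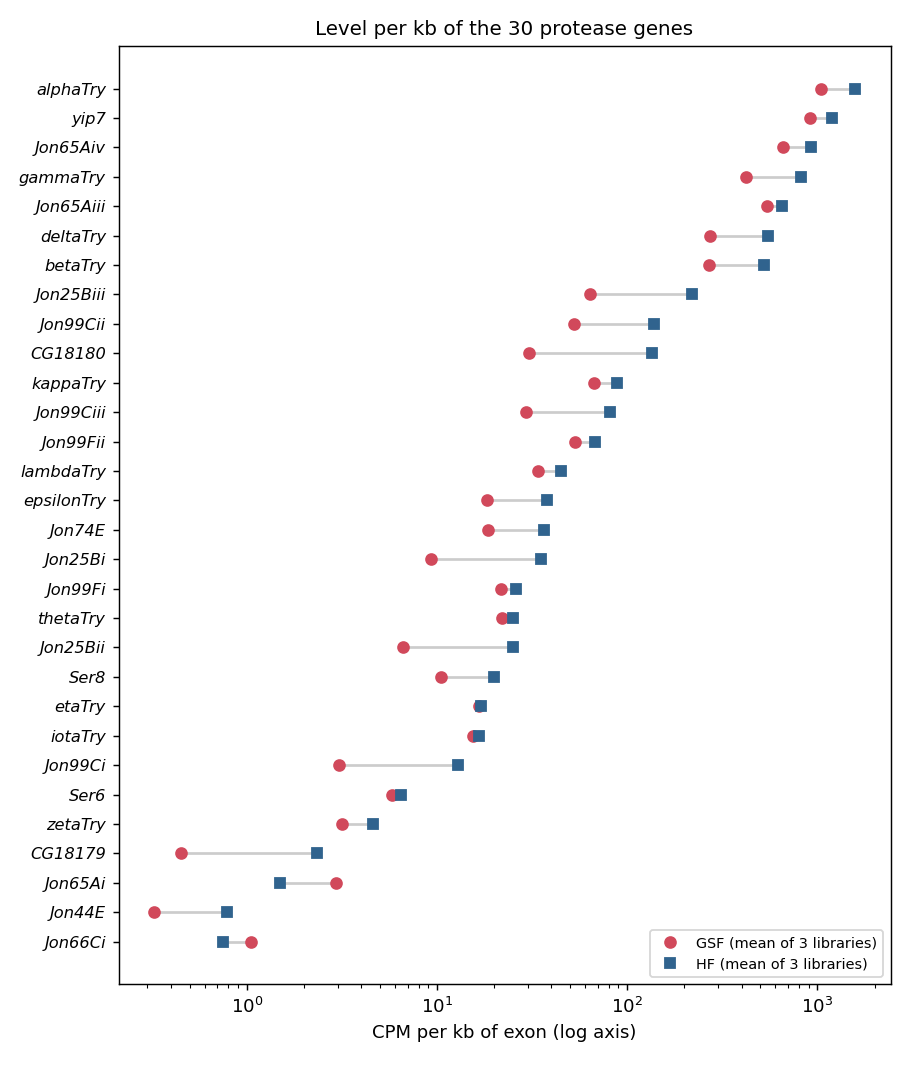
Mean level of each of the 30 protease genes in CPM per kb of exon (log axis), with circles for GSF and squares for HF, ordered by the HF level. The GSF circle lies left of the HF square for all genes but Jon65Ai and Jon66Ci, and alphaTry leads on both diets.

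Of the 28 tested proteases, 27 had a log2 fold change (GSF over HF) below 0, against 47.7% of all tested genes, and the median was -0.76, against 0.01 over all tested genes. In the test, 8 were lower in GSF flies, against 3.14% of all tested genes, and 0 were higher, against 2.0% of all tested genes. At an unadjusted p under 0.05 in edgeR 1 gene, Jon65Ai, was higher, and DESeq2 called 0 higher. The share over all tested genes at that unadjusted p was not counted. A log2 fold change below -1 was found for 10 of the 28, against 0.568% of all tested genes. For 14 of the 28 every GSF library lay below every HF library, against 12.9% of all tested genes, and for 0 of the 28 every GSF library lay above, against 12.3%. One of the genes counted here, CG18179, was under 1 CPM in all GSF libraries and entered the test only through its HF level, so that it had to be lower in GSF flies.

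Libraries that carry the same replicate number deviated together from the mean of their diet, as set out with the processing, and a fit with that number as a block was therefore made as well. With the block, 16 of the 28 proteases were lower in GSF flies and 0 were higher, against 6.52% and 6.80% of all tested genes. All 8 genes that passed without the block passed with it, and the other 8 were Jon25Bi, Jon25Bii, Jon99Ci, Jon99Cii, Jon99Ciii, Jon74E, Ser8 and alphaTry. Those 8 calls depend on a pairing that the labels do not explain.

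**Figure D2:**
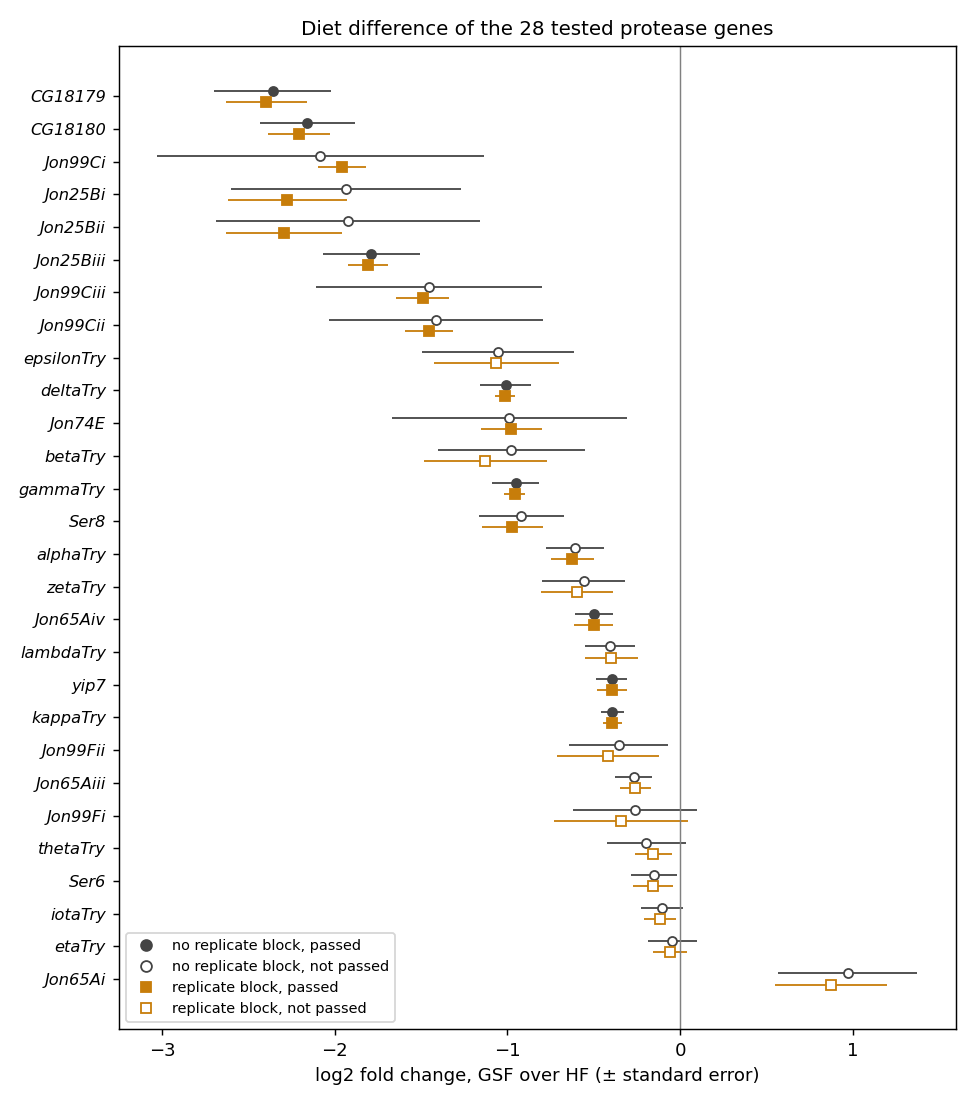
Log2 fold change, GSF over HF, with its standard error, for the 28 tested proteases in edgeR without (circles) and with (squares) the replicate number as a block. Filled symbols passed the thresholds: 8 without the block and 16 with it, all below 0, and the bars of the Jon99C, Jon25B and Jon74E genes are much shorter with the block.

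The pair CG18179 and CG18180 had the most negative fold changes in the fit without the block, at -2.36 and -2.16, while with the block Jon25Bii (-2.29) and Jon25Bi (-2.27) were below CG18180 (-2.21). Both are predicted serine proteases, encoded in the same direction on chromosome 3L at 9639271 to 9640140 and 9641013 to 9641913, 873 bp apart, within the span of fry, which runs on the other strand and shares no exon base with them. CG18180 was at 16.5, 30.1 and 35.6 CPM in GSF libraries, against 113, 105 and 149 CPM in HF libraries. The highest GSF library was thus far below the lowest HF library, and the mean was 4.47-fold lower in GSF flies (log2 fold change -2.16, SE 0.27, edgeR adjusted p = 0.0101). CG18179 was expressed much more weakly, with 12, 39 and 24 counts on GSF, against 85, 138 and 124 counts on HF. That is 0.19, 0.58 and 0.41 CPM on GSF and 1.65, 2.39 and 2.05 CPM on HF, with no overlap (log2 fold change -2.36, SE 0.34, edgeR adjusted p = 0.0126). CG18179 entered the test only through its HF level, so its direction and lack of overlap were fixed by the filter. Both genes stayed past the thresholds whichever single library was left out. The tested genes were kept the same in these fits, so the selection of CG18179 by its HF level remained. For CG18179 these fits therefore add no support.

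The Jon25B genes are 3 intronless Jonah genes side by side on the reverse strand of chromosome 2L, within 5.20 kb (4949941 to 4955144). All 3 were lower in every GSF library than in any HF library. Jon25Biii, the most abundant of them, was at 34.0, 66.8 and 57.3 CPM on GSF, against 132, 182 and 232 CPM on HF (log2 fold change -1.79, SE 0.28, edgeR adjusted p = 0.0144). Without GSF library 1 its adjusted p was 0.0513. Jon25Bi was at 2.05, 4.97 and 17.1 CPM on GSF, against 22.1, 25.4 and 44.5 CPM on HF. Its GSF libraries differed 8.33-fold among themselves, and it did not pass (log2 fold change -1.94, SE 0.67, edgeR adjusted p = 0.157), while with the block the adjusted p was 0.0118. Jon25Bii was at 1.25, 3.10 and 13.5 CPM on GSF, against 13.7, 17.4 and 36.3 CPM on HF, with GSF library 3 just under HF library 1. The edgeR fit gave Jon25Bii a log2 fold change of -1.92 (SE 0.76, adjusted p = 0.219), and with the block the adjusted p was 0.0108. Without GSF library 3 both genes passed without any block, Jon25Bi at a log2 fold change of -3.11 (edgeR adjusted p = 0.0276) and Jon25Bii at -3.35 (edgeR adjusted p = 0.0360). Over all 6 ways of leaving out 1 library, the value ran from -3.11 to -1.48 for Jon25Bi and from -3.35 to -1.39 for Jon25Bii.

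The Jon99C genes, 3 Jonah genes within 3.97 kb of chromosome 3R (29922216 to 29926189), had the same order of libraries as each other, with library 3 the highest on both diets. Jon99Cii, the highest of the 3 per kb, was at 19.7, 31.7 and 83.7 CPM on GSF, against 73.0, 68.0 and 219 CPM on HF. Jon99Ciii was at 15.1, 25.5 and 69.1 CPM on GSF, against 58.6, 54.2 and 188 CPM on HF. Jon99Ci was at 0.96, 1.30 and 6.08 CPM on GSF, against 4.11, 3.74 and 27.1 CPM on HF. For each gene GSF library 3 was above HF libraries 1 and 2, so the diets overlap, yet each GSF library was below the HF library of its own number. Without the block 0 of the 3 passed in edgeR (0 also at an unadjusted p under 0.05, and 0 in DESeq2), with log2 fold changes of -1.41 (SE 0.62, adjusted p = 0.265) for Jon99Cii, -1.46 (SE 0.65, adjusted p = 0.276) for Jon99Ciii and -2.08 (SE 0.95, adjusted p = 0.282) for Jon99Ci. With the block all 3 passed, at edgeR adjusted p values of 0.00393 for Jon99Cii, 0.0046 for Jon99Ciii and 0.00281 for Jon99Ci. The unblocked values depend on library 3: without HF library 3 the log2 fold change of Jon99Ci was -0.51. Over all 6 ways of leaving out 1 library it ran from -3.34 to -0.51.

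Jon74E, a Jonah gene with 3 exons that stands alone on chromosome 3L (17548077 to 17549127), was also highest in library 3 on both diets. It was at 6.30, 12.7 and 31.1 CPM on GSF, against 17.4, 17.4 and 64.5 CPM on HF. The diets overlap, and the unblocked fit gave -0.99 (SE 0.68, edgeR adjusted p = 0.505), the blocked one -0.98 (SE 0.17, edgeR adjusted p = 0.0196). Without HF library 3 the unblocked value was -0.06, and over all 6 ways of leaving out 1 library it ran from -1.78 to -0.06.

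The Jon65A genes lie within 15.3 kb of chromosome 3L (6039155 to 6054443), with yip7, which codes for a chymotrypsin-like protease of the same type, 2980 bp before them. The strongly expressed genes here differed by small factors between the diets. Jon65Aiv was at 633, 514 and 639 CPM on GSF, against 762, 914 and 847 CPM on HF (log2 fold change -0.50, SE 0.11, edgeR adjusted p = 0.0450). For yip7 the levels were 866, 757 and 848 CPM on GSF, against 984, 1138 and 1132 CPM on HF (log2 fold change -0.40, SE 0.09, edgeR adjusted p = 0.0484). Neither gene had overlapping libraries, but both adjusted p values lie next to the threshold, and both genes missed it whichever library was left out, with adjusted p values of 0.0776 to 0.115 for Jon65Aiv and 0.0653 to 0.154 for yip7. Jon65Aiii, at 459.6, 482 and 484 CPM on GSF and 563, 662 and 493 CPM on HF, did not pass (edgeR adjusted p = 0.225). Jon65Ai, read from the other strand at the far end of the cluster, was the single tested protease above 0. It was at 4.63, 1.65 and 2.11 CPM on GSF, against 1.26, 1.12 and 1.87 CPM on HF, with most of the difference in GSF library 1 (log2 fold change 0.97, SE 0.40, edgeR adjusted p = 0.238).

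The pair Jon99Fi and Jon99Fii, within 2.88 kb of chromosome 3R (30487016 to 30489895), did not separate the diets. Jon99Fii was at 26.9, 60.3 and 58.5 CPM on GSF, against 71.6, 50.1 and 64.8 CPM on HF. GSF library 1 alone was low, and the other libraries of both diets mixed (log2 fold change -0.36, SE 0.29, edgeR adjusted p = 0.590). Jon99Fi had the same low GSF library 1, at 9.65 CPM, with 27.9 and 23.3 CPM in the other GSF libraries and 29.6, 18.1 and 25.3 CPM on HF. Both remaining Jonah genes fell under the filter: Jon44E, which shares 49 bp of exon with CG8586 on the other strand, had 33, 31 and 22 counts on GSF and 38, 19 and 135 on HF, and Jon66Ci had 22, 87 and 58 counts on GSF and 28, 20 and 60 on HF.

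**Figure D3:**
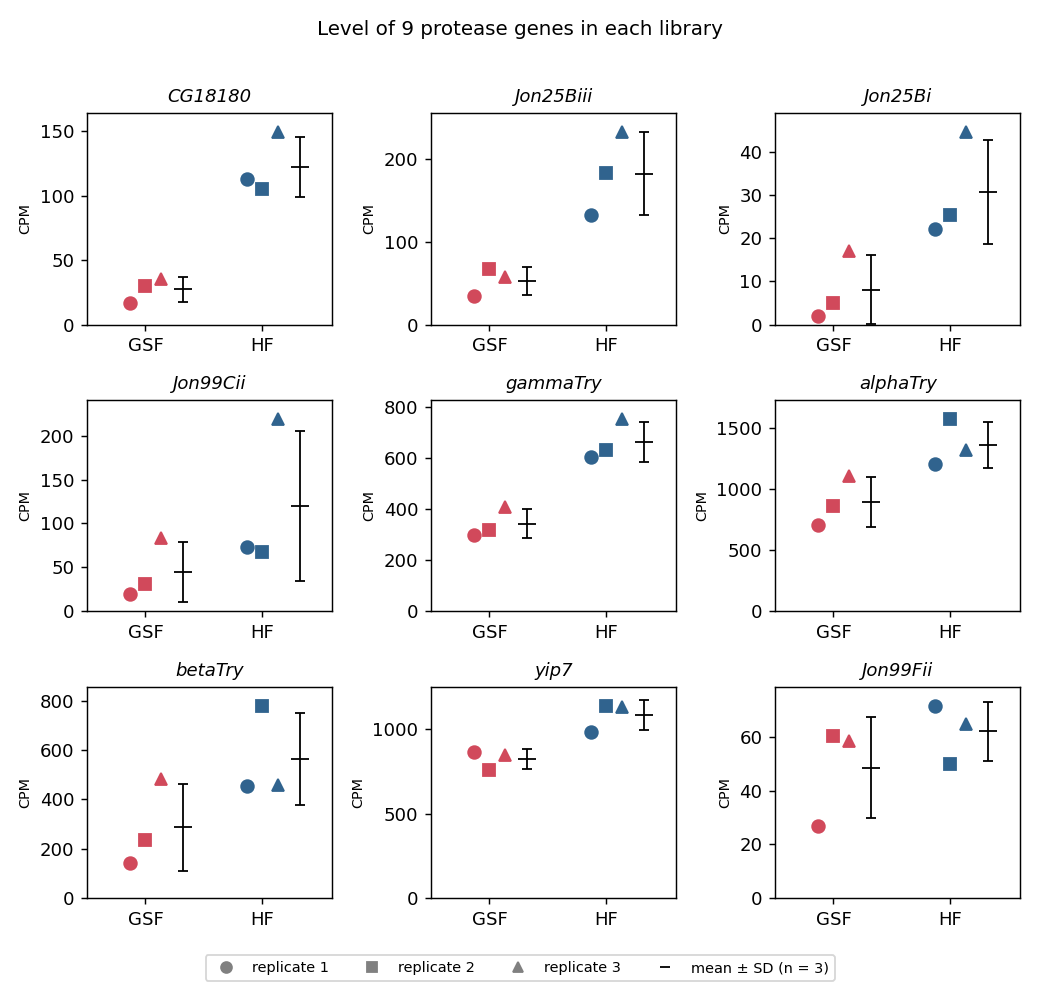
CPM of 9 protease genes in each library, GSF left of HF in each panel, with 1 symbol shape per replicate number and the mean ± SD (n = 3) beside the points; every axis starts at 0. CG18180, Jon25Biii, Jon25Bi, gammaTry, alphaTry and yip7 do not overlap between the diets, whereas Jon99Cii, betaTry and Jon99Fii do.

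All 11 trypsin genes lie within 20.7 kb of chromosome 2R (11336840 to 11357537), together with CG30025 and CG30031, and all 11 had a fold change below 0. The test was passed by 3 of them, deltaTry, gammaTry and kappaTry. deltaTry was at 194, 203 and 265 CPM on GSF, against 408, 404 and 518 CPM on HF, 2.01-fold lower in GSF flies (log2 fold change -1.01, SE 0.15, edgeR adjusted p = 0.0132). gammaTry was at 301, 320.0 and 408 CPM on GSF, against 606, 630.3 and 752 CPM on HF (log2 fold change -0.95, SE 0.14, edgeR adjusted p = 0.0124). Both showed nearly the same difference at each replicate number, with log2 ratios between -1.07 and -0.97 for deltaTry and between -1.01 and -0.88 for gammaTry. Without GSF library 1 the adjusted p was 0.0573 for deltaTry and 0.0561 for gammaTry, and for deltaTry it was 0.0501 without GSF library 2.

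CG30025 and CG30031, trypsin-like genes whose symbols fall outside the naming rule, had almost the same levels as this pair. CG30025 has an exon length of 810 bp, as gammaTry and deltaTry do, and CG30031 one of 811 bp. CG30025 was at 290.0, 312 and 405 CPM on GSF, against 584, 625 and 723 CPM on HF, close to gammaTry in every library. CG30031 was at 205, 211 and 274 CPM on GSF, against 423, 418 and 549 CPM on HF, close to deltaTry. Both passed as lower in GSF flies, at log2 fold changes of -0.94 (SE 0.14) and -1.01 (SE 0.15). The treatment of reads that match several genes is not given in the sources used here. The counts of these 4 genes are therefore uncertain as values of single genes. Sequence similarity was not examined, so the same may hold for other neighbouring members, such as Jon99Cii and Jon99Ciii, which lie 299 bp apart. deltaTry also shares 15 bp of exon with CG13202 on the other strand.

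kappaTry was the steadiest member. It was at 65.1, 62.2 and 61.2 CPM on GSF, against 81.3, 86.8 and 79.3 CPM on HF, and its small difference passed (log2 fold change -0.39, SE 0.07, edgeR adjusted p = 0.0176), although leaving out any 1 library other than HF library 3 raised its adjusted p to between 0.0578 and 0.0936. alphaTry, the most abundant trypsin, was at 709, 864 and 1110.5 CPM on GSF, against 1204, 1572 and 1316 CPM on HF. Its libraries did not overlap, but it did not pass without the block (log2 fold change -0.61, SE 0.17, edgeR adjusted p = 0.0921), while it did with the block (adjusted p = 0.0264) and in DESeq2 (adjusted p = 0.00813).

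betaTry and epsilonTry, which lie 259 bp apart, were highest in GSF library 3 and in HF library 2, as were alphaTry and lambdaTry. betaTry was at 141, 237 and 483 CPM on GSF, against 455, 778 and 460.1 CPM on HF. epsilonTry was at 8.42, 13.6 and 23.7 CPM on GSF, against 22.2, 50.6 and 21.9 CPM on HF. In libraries 1 and 2 both were lower on GSF, with log2 ratios of -1.69 and -1.72 for betaTry and -1.40 and -1.90 for epsilonTry, and in library 3 the diets were level, at 0.07 and 0.11. Neither passed in edgeR, without the block (-0.98, SE 0.43, adjusted p = 0.261 for betaTry; -1.05, SE 0.44, adjusted p = 0.239 for epsilonTry) or with it (adjusted p = 0.0949 and 0.115). The other 5 trypsins, zetaTry, lambdaTry, thetaTry, iotaTry and etaTry, did not pass either, with log2 fold changes between -0.56 for zetaTry and -0.05 for etaTry.

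**Figure D4:**
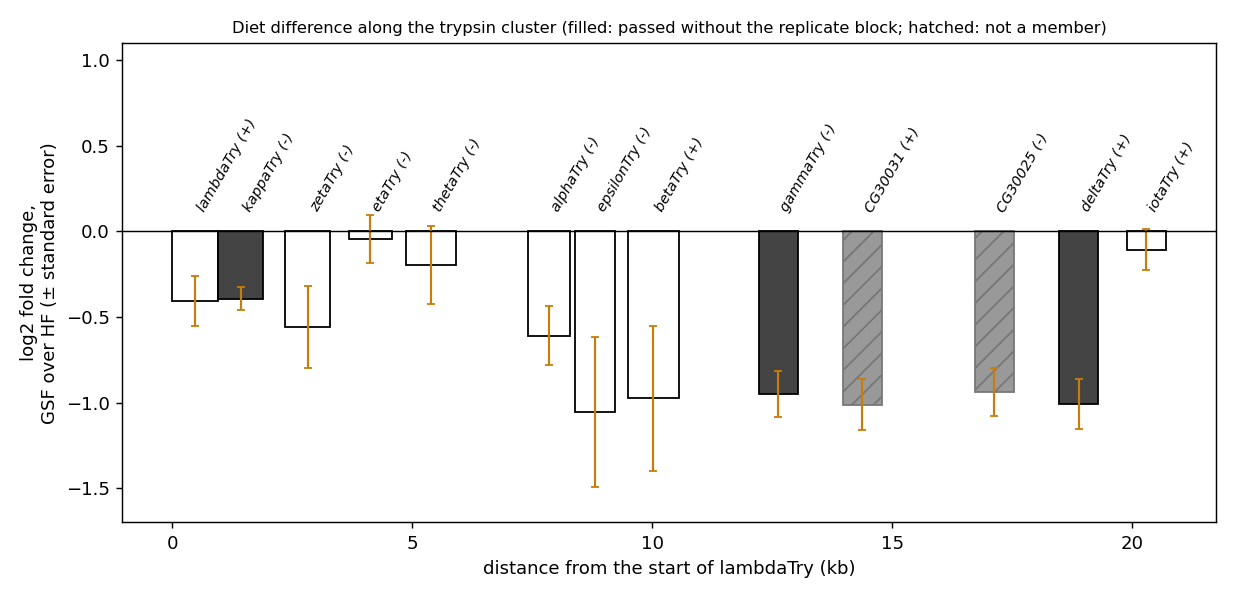
Log2 fold change, GSF over HF, with its standard error, along the trypsin cluster; the x axis is the distance in kb from the start of lambdaTry, bars are as wide as the genes, and the sign after each name is the strand. Filled bars passed without the replicate block and hatched bars mark CG30025 and CG30031, which are not among the 30 proteases; gammaTry, CG30031, CG30025 and deltaTry lie between -0.94 and -1.01.

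Ser8 and Ser6, the remaining serine proteases, lie apart from the clusters, Ser8 on chromosome 2R (13434207 to 13435045) and Ser6 on the X chromosome (20962605 to 20963505). Ser8 was at 11.8, 9.23 and 5.47 CPM on GSF, against 18.8, 15.2 and 16.3 CPM on HF. Its diets did not overlap, and it passed with the block (adjusted p = 0.0211) and in DESeq2 (adjusted p = 0.00195) but not in the unblocked edgeR fit (log2 fold change -0.92, SE 0.25, adjusted p = 0.0807). Ser6 was at 6.0, 4.55 and 5.14 CPM on GSF and 6.11, 6.19 and 5.15 CPM on HF and did not pass (edgeR adjusted p = 0.628).

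Variation between libraries of the same diet was wide for many of these genes. The SD of log2 CPM within a diet was 1.36 for Jon99Ci, 1.19 for Jon25Bii, 1.09 for Jon74E, 1.06 for Jon25Bi, 1.05 for Jon99Ciii and 1.0 for Jon99Cii, against a median of 0.12 over all tested genes. At the other extreme kappaTry had an SD of 0.06, and 26 of the 28 tested proteases were above the median of all tested genes. The highest library on both diets was number 3 for 10 of the 28, against 19.7% of all tested genes. Of the GSF libraries, number 1 was the lowest for 18 of the 28, and number 3 was the highest for 18. The shares over all tested genes were not counted for these GSF orders. What libraries of the same number share is not stated, and its part in these orders was not tested.

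**Figure D5:**
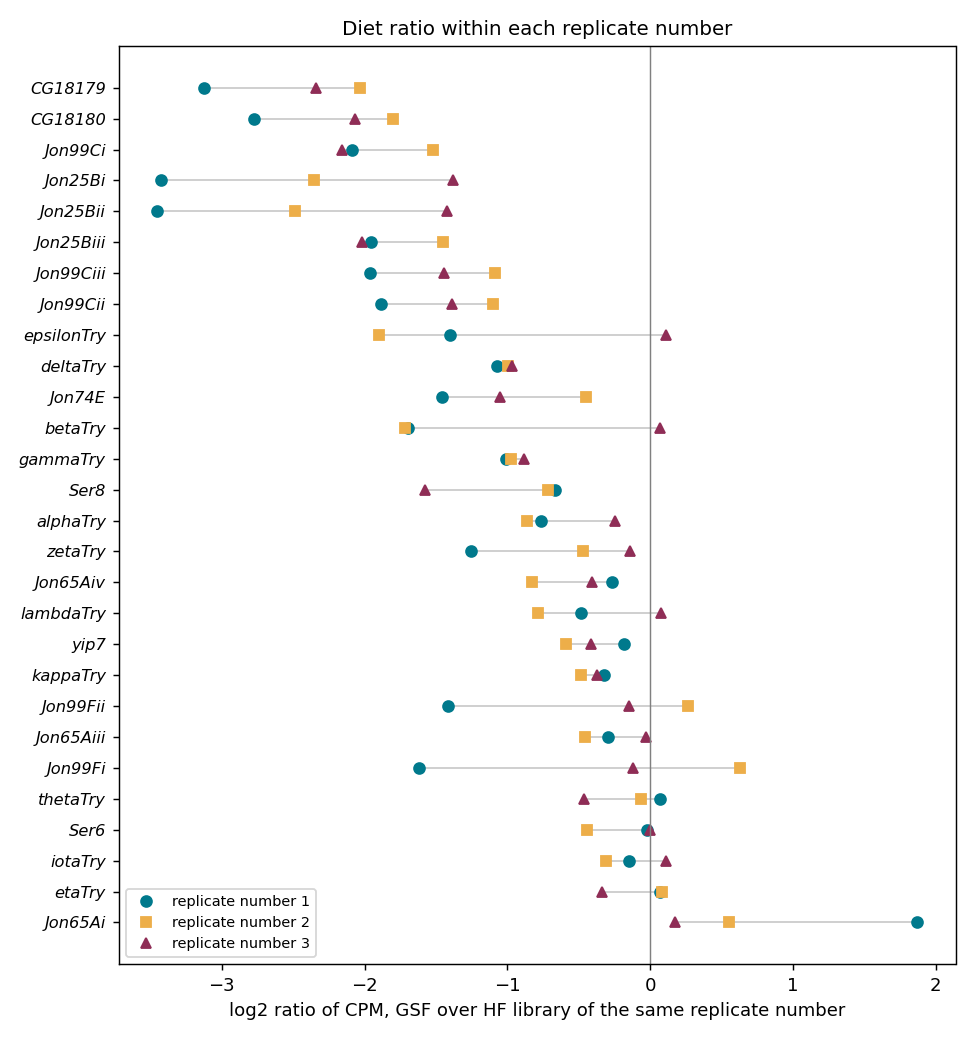
Log2 ratio of CPM, GSF over HF, between the libraries of the same replicate number, for the 28 tested proteases; each symbol is 1 pair of libraries and the grey line joins the 3. For 19 of the 28 genes all 3 ratios are below 0, a count that was not made for the tested genes as a whole. The ratios of gammaTry and deltaTry nearly coincide, while those of Jon25Bi run from -3.43 to -1.38.

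Most members are compact genes: 25 of the 30 have a single exon, 4 have 2 and Jon74E has 3. Lists of further genes cover other proteases, serpins and carbohydrate digestion. The lists were not restricted to genes expressed in the gut. Of 14 zinc carboxypeptidases of the M14 family, which remove residues from the ends of peptides, 10 were tested and 3 were lower in GSF flies, with a median log2 fold change of -0.45. CG17633, the most changed of the 3, was at 52.2, 72.5 and 79.7 CPM on GSF, against 136, 128 and 159 CPM on HF (log2 fold change -1.05, SE 0.16, edgeR adjusted p = 0.0135). Pepsin-like aspartyl proteases, which work in acid, gave 0 calls among 5 tested genes in edgeR (0 also at an unadjusted p under 0.05, and 0 in DESeq2), with a median of 0.04. Serpins, which inhibit serine proteases, gave 1 call among 26 tested genes, Spn77Bc, which was lower in GSF flies (log2 fold change -0.41, SE 0.09, edgeR adjusted p = 0.0413), and a median of -0.02. Carbohydrate digestion, a list of maltases and amylases with the glucosidase gene tobi, gave 10 genes lower of 14 tested, 0 higher, and a median of -0.88. Over all tested genes the shares called were the 3.14% and 2.0% given above.

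The number of enterocytes was not tested, and only the RNA of marker genes of these cells is given. Of 6 listed markers 5 were matched, Myo31DF, mex1, nub, GATAe and Npc1b. The diets overlapped for nub, GATAe and Npc1b but not for Myo31DF and mex1. All 5 had log2 fold changes above 0, from 0.03 for GATAe to 0.93 for Npc1b. Their summed level was 273 to 293 CPM in GSF libraries, against 202 to 253 CPM in HF libraries. Myo31DF made up much of that sum, with means of 156 CPM on GSF and 129 CPM on HF. In edgeR 0 of the 5 passed without the block, and 2 were higher with it. At an unadjusted p under 0.05 3 were higher, a threshold at which the share over all tested genes was not counted. DESeq2 called 1 higher. The 9 enteroendocrine markers summed to 149 to 162 CPM on GSF and 141 to 165 CPM on HF. Of 4 listed markers of progenitor cells only E(spl)mbeta-HLH and klu were matched, while esg and Dl were not. The 2 matched markers summed to 15.4 to 16.1 CPM on GSF and 17.4 to 20.6 CPM on HF. The 2 markers of the acid-secreting copper cell region summed to 10.4 to 17.7 CPM on GSF and 11.3 to 18.8 CPM on HF. Muscle markers overlapped between the diets, at 2693 to 2762 CPM on GSF and 2556 to 2904 CPM on HF. Fat body markers did not overlap as a sum, at 3007 to 3665 CPM on GSF and 4017 to 4442 CPM on HF. Their members went both ways, with log2 fold changes of -3.07 for Lsp2, -0.57 for FASN1, -0.42 for bmm and 0.30 for apolpp, and their part in the protease levels was not tested.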

How the data were processed

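RNA from 6 whole-fly samples was sequenced. The authors trimmed reads with Trimmomatic, aligned them to bdgp6 with HISAT2 (2.1.0), used SAMtools (1.8) and counted reads on genes with Rsubread; the deposited files hold these raw counts per gene. The authors' edgeR table supplied gene symbols only; its fold changes and p-values were not used. The diets were compared in edgeR 4.0.16 (R 4.3.3), on genes that reached 1 CPM in 3 or more libraries, with TMM scaling and a two-sided quasi-likelihood test adjusted by Benjamini-Hochberg over all 13373 tested genes. The standard error is the absolute log2 fold change over the square root of F. CPM use TMM-scaled library sizes, and SDs within diets use log2(CPM + 0.5). DESeq2 1.42.0 was an alternative, as were other scalings, filters and thresholds, a replicate block, and leaving out libraries. Each test was first run on simulated counts without any effect shared by same-numbered libraries, so the simulation does not cover the pairing. Same-numbered libraries had deviations from their diet means that correlated across genes at 0.205, 0.282 and 0.512, against -0.340 to 0.115 for other pairs. The numbers were therefore taken as pairing the samples, from the counts alone. Deviations within a diet cancel out, so these correlations are not independent of each other, and the blocked fit used the same counts. Coordinates and exon lengths come from Ensembl's BDGP6 annotation (release 115). Values are given for each gene that passed or had an absolute log2 fold change of at least 1, and for the gene highest per kb in each cluster; values for Jon74E, Jon99Fi, Jon44E, betaTry, Ser8, Ser6, Jon65Aiii, Jon65Ai, CG30025, CG30031 and CG17633 were added after they were seen. Grouping by an active-site motif was planned and is not analysed here. The members and lists were chosen with earlier results of these data known.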

Additional observations from a re-analysis of the deposited data

How the results depend on the processing

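Of the tested proteases, 8 were lower and 0 higher in GSF flies. The number lower was 16 with the replicate block (0 higher) and 16 at an unadjusted p under 0.05 (1 higher, Jon65Ai). It was 10 with DESeq2 and 4 with a false discovery rate under 0.05 and a fold change of at least 2. At the unadjusted p and at the fold-change threshold the shares over all tested genes were not counted. The number of proteases lower was 7 with the size factors of DESeq2, with library size alone and with no filter, yip7 being the gene lost. It was also 7 with 1 CPM required in all 6 libraries, where CG18179 and Jon99Ci were not tested. Leaving out 1 library gave between 2 (without GSF library 1) and 7 (without GSF library 3) genes lower, with 4 without GSF library 2, 5 without HF library 1 or HF library 2 and 6 without HF library 3. The number lower over all genes fell in the same fits, from 420 to 68 without GSF library 1, 188 without GSF library 2, 161 without GSF library 3, 123 without HF library 1, 216 without HF library 2 and 296 without HF library 3. Leaving out both libraries of 1 number was chosen after seeing the data. It gave 0 proteases lower without replicate 1, where 0 of all 13373 genes passed. Without replicate 2 it gave 1, where 73 of all tested genes were lower. Without replicate 3, 5 of the 8 proteases missed the thresholds and 3 others passed them, while 88 of all tested genes were lower. For the other gene lists together, 16 genes were lower, and between 4 and 13 when 1 library was left out. Over all genes tested, 420 were lower and 267 higher, against 824 and 604 with DESeq2 and 872 and 910 with the block.

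No direction changed under another scaling, filter, test or the block. Without 1 library, or without both of 1 number, the log2 fold change of Jon99Fi reached 0.07 (range -0.56 to 0.07 over single libraries; -0.73 to 0.24 over numbers), of Jon99Fii 0.048 (range -0.67 to 0.048 over numbers), of thetaTry 0.13 (range -0.33 to 0.13; 0.012 without replicate 3), of iotaTry 0.010 (range -0.20 to 0.010; -0.22 without replicate 3), and of etaTry 0.10 and 0.016 (range -0.18 to 0.10; 0.082 without replicate 3). None of these 5 genes passed the thresholds in any fit. The cause was not tested. The median over the tested proteases lay between -0.80 and -0.54 when 1 library was left out.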

Other observations

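Copies of the same families outside the comparison table were barely detected. Jon65Aii, which lies between Jon65Aiii and Jon65Ai, had 4, 9 and 8 counts in GSF libraries and 4, 6 and 7 counts in HF libraries, and Jon66Cii had 10, 11 and 6 counts on GSF and 6, 10 and 15 counts on HF. Ser12 had 0 counts in all 6 libraries, which allows a level of up to 0.0584 CPM per library for counting error alone.

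The carboxypeptidase gene CG12374, picked after its values were seen, had a wide spread within the diets like that of Jon25Bi and Jon25Bii. It was at 29.7, 80.0 and 227 CPM on GSF, against 133, 123 and 250.3 CPM on HF, again lowest in GSF library 1 and highest in library 3 of both diets.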
